A study of Mus musculus with 6 samples.

Results

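CTCF peaks were described around 8 genes of Notch signalling and muscle stem cell quiescence: the receptor genes Notch1, Notch2 and Notch3, the target genes Hes1, Hey1 and Heyl, and the quiescence genes Calcr and Spry1. A peak was a member when its midpoint lay in a fixed range of about 1 Mb around a gene, given in mm9 coordinates. Membership thus used position and no measured value, but the ranges were chosen with earlier results of these data known. The rule gave 194 of the 36923 peaks listed in the series, 81 in quiescent satellite cells (QSC) and 113 in freshly isolated satellite cells (FISC). No peak straddled the edge of a range in a way that changed these numbers.

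The cells came from skeletal muscle of C57BL/6 mice of Pax7-nGFP genotype at postnatal day 38, in both states. Satellite cells are the Pax7-expressing stem cells of muscle, and taking them out of the tissue is known to start their activation. ChIP-seq, which sequences the DNA recovered with an antibody, here to CTCF, was made as 2 ChIP libraries and 1 input library per state, and each state has 1 deposited peak list. The labels do not say how the quiescent cells were obtained or whether libraries came from separate animals, and peak lists hold no expression against which the cell type could be checked. A list holds intervals only, with no height or read count, so depth is unknown, no value has a replicate error, and no test between the states was made. Intervals given with a share are 95% Wilson intervals and cover counting error only. The lack of a call in a list is not evidence that CTCF was off the site.

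Notch receptors sit in the cell membrane. A ligand on a neighbouring cell triggers their cleavage, and the freed intracellular part enters the nucleus, joins the DNA-binding protein RBPJ and switches on genes such as those of the Hes and Hey families, which encode transcriptional repressors. In muscle, Notch signalling is known for keeping satellite cells quiescent. Calcr encodes the calcitonin receptor, a surface marker of quiescent satellite cells, and Spry1 encodes an inhibitor of receptor tyrosine kinase signalling. CTCF is a DNA-binding zinc finger protein known for stopping cohesin at its sites, which fixes the ends of chromatin loops and the borders of domains.

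Peak sequences were not analysed here, because no mm9 genome was used. To show the letters that CTCF is known to prefer, RefSeq promoters (build GRCm38.p6, 250 bases before to 50 after a start) were searched on both strands for a CTCF core motif of 8 fixed letters: CCA, 2 free bases, AG, 2 free bases and GGC. Promoters were found for Notch1, Notch2, Notch3, Calcr and Spry1, 5 of the 8 genes, with 2 for Calcr, and not for Hes1, Hey1 and Heyl. None of these 6 promoters held the whole core, which 797 of all 32851 promoters (2.43%) held. The stretch with the most fixed letters is printed for each gene with 10 flanking bases, and capitals mark the letters that fit the core. Where stretches tied, the first was taken, and for Calcr the promoter at chr6:3763574-3763873 is shown.
Notch1, chr2:26503773-26504072, minus strand: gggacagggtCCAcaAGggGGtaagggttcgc
Notch2, chr3:98013288-98013587, plus strand: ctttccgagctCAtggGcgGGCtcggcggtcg
Notch3, chr17:32166841-32167140, minus strand: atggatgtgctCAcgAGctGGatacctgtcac
Calcr, chr6:3763574-3763873, minus strand: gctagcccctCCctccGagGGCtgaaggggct
Spry1, chr3:37639697-37639996, plus strand, core on the opposite strand: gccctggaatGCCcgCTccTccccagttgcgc
The Notch1 stretch, whose core begins at position -109 from the start, had 7 of the 8 letters, as 30.6% of all promoters did or exceeded. The others had 6, a number that 92% of all promoters reached. These coordinates are GRCm38, whereas the peaks are in mm9, so no listed peak was placed on a promoter.

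Across the 8 ranges, sites listed in both states stood beside a larger number of sites listed in FISC alone. Peaks that overlapped between the lists by 1 bp or more are called shared, and all others QSC-only or FISC-only. Of the 81 QSC peaks, 45 were shared (55.6%, 44.7 to 65.9), beside 37.8% of the whole QSC list. Of the 113 FISC peaks, 45 were shared (39.8%, 31.3 to 49), beside 41.8% of the whole FISC list. The other 36 QSC peaks were QSC-only, beside 62.2% of the whole list, and the other 68 FISC peaks were FISC-only, beside 58.2%. FISC-only peaks thus made up 65.4% (55.8 to 73.8) of the 104 state-only peaks, and 45.8% of all 22269 state-only peaks of the series. Each of the 45 shared QSC peaks had a single FISC partner, and merging overlapping peaks left 149 sites. The ranges were denser in peaks than the genome, with 9.88 against 7.32 per Mb in QSC and 13.8 against 6.61 in FISC. The shared shares were not set beside windows of like density, so their contrast with the whole lists is not particular to these genes on this showing.

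**Figure D1:**
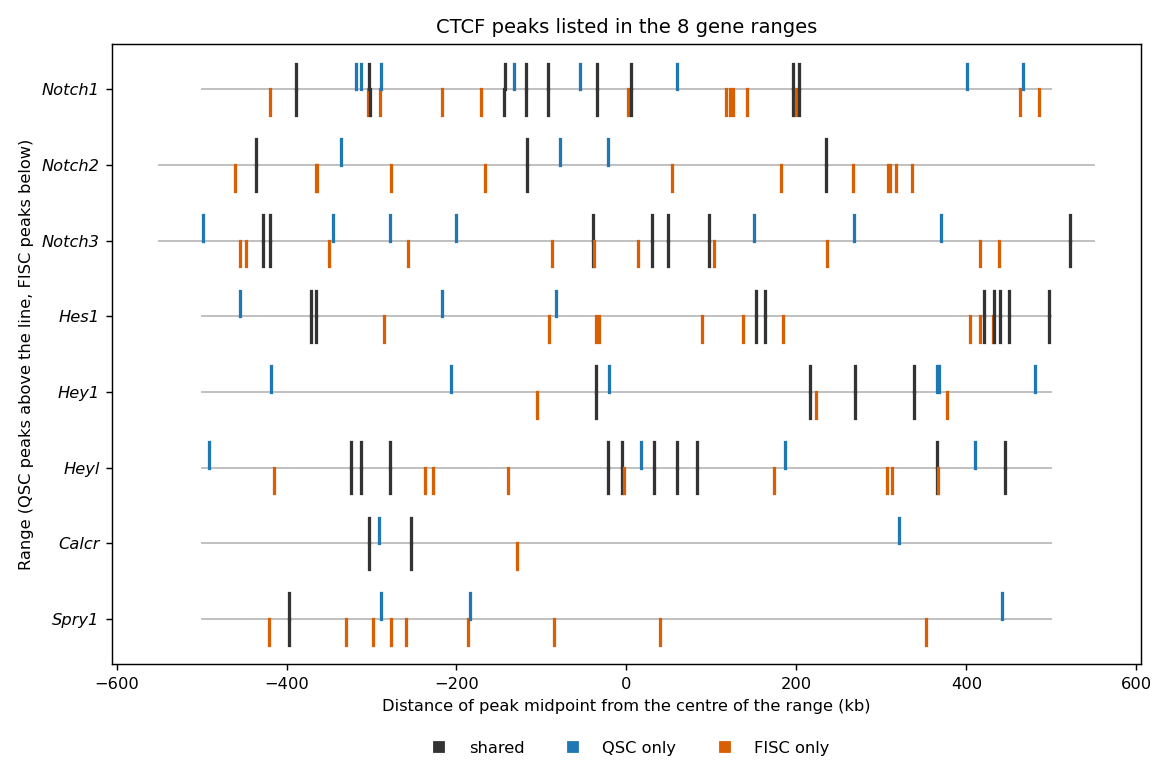
Position of every listed CTCF peak in the 8 gene ranges, as the distance of its midpoint from the centre of the range in kb, with QSC peaks above each line and FISC peaks below it. Black marks shared peaks, blue QSC-only and orange FISC-only peaks. The centre of a range is not the start of its gene. The Calcr range has no QSC peak within 250 kb of its centre.

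The excess of FISC-only peaks was found in 6 of the 8 ranges, those of Notch1, Notch2, Notch3, Hes1, Heyl and Spry1. The ranges of Hey1 and Calcr held more QSC-only peaks. In the genome, 30.9% of 2649 windows of 1 Mb held more FISC-only than QSC-only peaks and 55.5% the reverse. The number of shared peaks in a window moved with this balance, so the ranges were also set beside windows with like numbers of shared peaks, a split chosen after the values were seen. In the ranges of Notch1, Notch3, Hes1 and Heyl, which held 7 to 10 shared QSC peaks, 43 of 65 state-only peaks were FISC-only (66.2%, 54 to 76.5). In the 222 windows with 7 to 10 shared QSC peaks this was 57.9%, a value inside that interval, and 66.7% of these windows held more FISC-only than QSC-only peaks, as did all 4 ranges. In the ranges of Notch2, Hey1, Calcr and Spry1, with 1 to 4 shared QSC peaks, 25 of 39 were FISC-only (64.1%, 48.4 to 77.3), beside 45.4% in 1102 such windows, a value below that interval. Of the 25, the Notch2 range gave 12 and the Spry1 range 9, whereas the ranges of Hey1 (3 FISC-only, 6 QSC-only) and Calcr (1 and 2) had the opposite balance. Of the 1102 windows, 32.1% held more FISC-only than QSC-only peaks, as did 2 of the 4 ranges (Notch2 and Spry1). All windows of this split were 1 Mb long, whereas the ranges of Notch2 and Notch3 were 1.1 Mb. The intervals count peaks as separate units although they came from only 4 ranges each time, and no difference from the windows was tested.

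The flanks of the same ranges were counted in the same way. Within 500 kb on each side, 66 QSC and 60 FISC peaks were listed. Of the QSC peaks there 22 were shared (33.3%, 23.2 to 45.3), and of the FISC peaks 22 (36.7%, 25.6 to 49.3). The whole lists had 37.8% and 41.8%. The FISC-only share among state-only peaks of the flanks was 46.3% (36 to 57.1), beside 45.8% of all state-only peaks of the series. All 3 flank shares were below the 55.6%, 39.8% and 65.4% inside the ranges, and each interval overlapped the one inside. The overlap was narrow for the shared share of QSC peaks (44.7 to 45.3) and for the FISC-only share (55.8 to 57.1), and the differences were not tested.

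**Figure D2:**
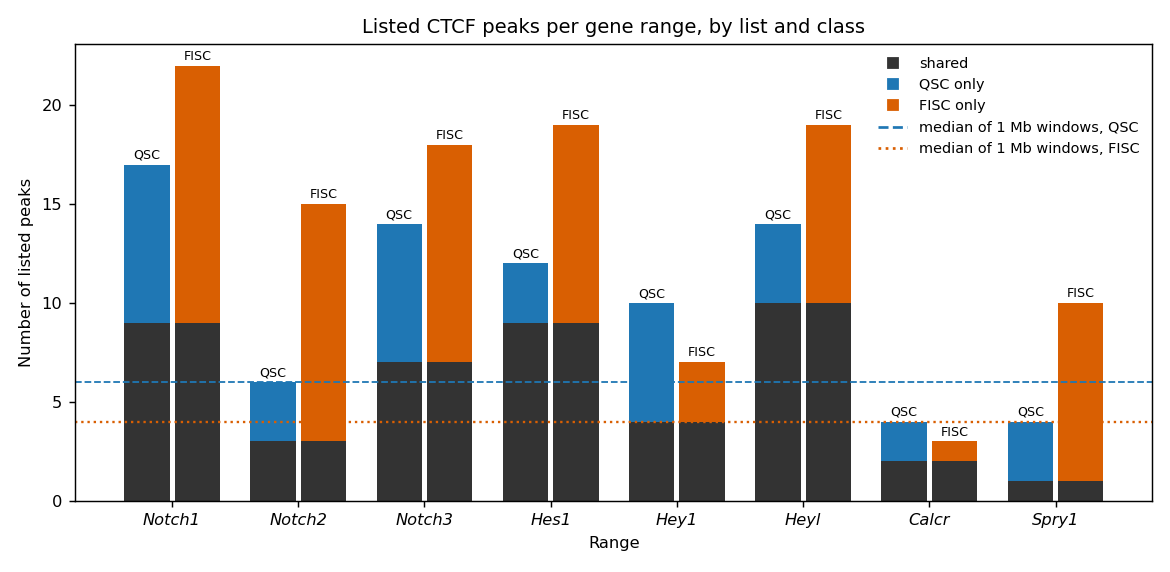
Number of listed CTCF peaks in each gene range, with QSC on the left and FISC on the right of each pair and shared peaks in black at the base. Dashed and dotted lines are the medians of 2649 genome windows of 1 Mb, 6 QSC and 4 FISC peaks, and the ranges of Notch2 and Notch3 are 1.1 Mb long. FISC bars are the taller in 6 ranges, and both Calcr bars lie below their medians.

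The Notch1 range, chr2:25800000-26800000, was the richest of the 8. Notch1 encodes a receptor, and the gene lies between Sec16a and Egfl7 in RefSeq. The range held 17 QSC and 22 FISC peaks, more than 94.1% and 95.3% of 1 Mb windows. It held 9 shared sites, 8 QSC-only and 13 FISC-only peaks. The shared sites began, in the QSC list, at 25910697, 25997397, 26156408, 26181145, 26207514, 26264559, 26305008, 26495693 and 26502385. The widest interval was the QSC peak chr2:26181145-26181899, whose 755 bp exceeded 99.3% of the QSC list, and its FISC partner measured 445 bp. At the site near 26264559 the order was the reverse, with 733 bp in FISC and 543 bp in QSC.

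Near the centre of the Notch1 range a shared site and a FISC-only peak lay side by side. The FISC-only peak chr2:26301508-26301903 lay 3.1 kb before the shared QSC peak chr2:26305008-26305303. Further along, 4 FISC-only peaks followed each other over 25.5 kb, from 26417106 to 26442558, with no QSC peak among them. The longest stretch with no peak in either list ran for 197 kb from 26502886. The widest FISC-only peak, chr2:26009456-26009929 (474 bp), lay 516 bp from the nearest QSC peak, which was itself QSC-only and so was counted as a separate site. The widest QSC-only peak, chr2:26245480-26245860, measured 381 bp.

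The Notch2 range, chr3:97300000-98400000, held fewer QSC than FISC peaks. Notch2 encodes another receptor of the family, between Sec22b and Adam30 in RefSeq once predicted genes are left out. The range held 6 QSC peaks, more than in 36.9% of windows of its length of 1.1 Mb, and 15 FISC peaks, more than in 85.5%. Only 3 sites were shared, beginning at 97413883, 97732922 and 98084771 in the QSC list. The other peaks were 3 QSC-only and 12 FISC-only, so 20% of FISC peaks (7.05 to 45.2) had a partner, against 41.8% in the whole list.

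The last 5 sites of the Notch2 range were all FISC-only. They ran from 98116825 to 98185663, over 68.8 kb. No state-only peak of the range lay near the other list: the least distance was 24.2 kb for FISC-only and 27.6 kb for QSC-only peaks. The QSC-only peak nearest the centre, chr3:97828266-97828693 (428 bp), and the FISC-only peak nearest the centre, chr3:97903300-97903624 (325 bp), lay 74.6 kb apart and were each other's nearest peak of the other list. The widest shared interval was chr3:97413782-97414364 in FISC (583 bp), the widest QSC-only chr3:97513647-97514109 (463 bp) and the widest FISC-only chr3:98031143-98031589 (447 bp). The longest empty stretch between neighbouring sites, 128 kb from 97903625, began at the end of the central FISC peak. A longer one, with no peak in either list, ran from 98185663 to the end of the range at 98400000.

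The Notch3 range, chr17:31700000-32800000, held 14 QSC and 18 FISC peaks, more than 85.7% and 89.8% of windows of 1.1 Mb. Notch3, also a receptor gene, lies between Rrp1b and Ephx3 in RefSeq. The peaks were 7 shared sites, 7 QSC-only and 11 FISC-only. The shared sites began at 31822485, 31830140, 32210252, 32280260, 32298997, 32346640 and 32771792 in the QSC list. The sites at 32280260, 32298997 and 32346640 followed each other with no state-only peak between them, over 66.9 kb beyond the centre.

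FISC-only peaks of the Notch3 range were narrower than its shared FISC peaks by their medians. The 11 FISC-only peaks had a median width of 291 bp and ran from 253 to 433 bp, against a median of 445 bp for the 7 shared FISC peaks. The whole FISC list had the same order, with 344 bp for FISC-only and 412 bp for shared peaks. The 7 QSC-only peaks had a median of 322 bp, beside 358 bp for the 7 shared QSC peaks and 291 bp for QSC-only peaks of the whole list. The widest FISC-only peak, chr17:32352553-32352985 (433 bp), lay 5.55 kb from the nearest QSC peak, and the widest QSC-only peak, chr17:32620072-32620534 (463 bp), lay 45.2 kb from FISC. The widest shared interval was the QSC peak chr17:32771792-32772332 (541 bp). The FISC peak nearest the centre was FISC-only, chr17:32263649-32263932 (284 bp), 16.3 kb before the shared site at 32280260. The longest empty stretch measured 113 kb from 32049656.

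The 3 receptor ranges together held 37 QSC and 55 FISC peaks. Of these, 51.4% of QSC peaks (35.9 to 66.6) and 34.5% of FISC peaks (23.4 to 47.7) were shared. The 3 target ranges held 36 QSC and 45 FISC peaks, of which 63.9% (47.6 to 77.5) and 51.1% (37 to 65) were shared. The 2 quiescence ranges held 8 QSC and 13 FISC peaks, with 3 shared sites, so 37.5% (13.7 to 69.4) and 23.1% (8.18 to 50.3) were shared. The whole lists had 37.8% of QSC and 41.8% of FISC peaks shared. The intervals of the 3 groups of ranges overlapped in each list, and no group was tested against another.

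The Hes1 range, chr16:29600000-30600000, had the highest share of QSC peaks with a FISC partner among the 8 ranges, 9 of 12 (75%, 46.8 to 91.1). Hes1 encodes a repressor that is a direct target of Notch, and the gene lies between Opa1 and Cpn2 in RefSeq. The range held 19 FISC peaks, more than in 92.4% of 1 Mb windows, and 12 QSC peaks, more than in 83.1%. QSC-only peaks were 3 and FISC-only peaks 10. The shared sites began at 29728947, 29734433, 30252293, 30262705, 30520574, 30532125, 30539399, 30550396 and 30597320 in the QSC list.

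The densest 100 kb of the Hes1 range lay at its far end and held 8 of its 22 sites, from 30504251 to 30597659. Of these 8 sites, 5 were shared, 3 FISC-only and 0 QSC-only. The widest shared interval lay there, chr16:30550362-30550869 in FISC (508 bp), with 466 bp in QSC. Before that cluster came the longest empty stretch, 220 kb from 30284460. Across the middle of the range 4 FISC-only peaks followed each other, between 30064169 and 30236839, with no QSC peak among them. The first of them, chr16:30064169-30064635 (467 bp), was the widest FISC-only peak of the range and lay 47.4 kb from the nearest QSC peak, and the second, chr16:30067005-30067397 (393 bp), was the FISC peak nearest the centre. The QSC peak nearest the centre was QSC-only, chr16:30016438-30016722 (285 bp), 7.11 kb from a FISC-only peak.

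The Hey1 range, chr3:8200000-9200000, held more QSC than FISC peaks, 10 against 7. Hey1 encodes a repressor of the Hey family, between Stmn2 and Mrps28 in RefSeq once predicted genes are left out. There were 4 shared sites, 6 QSC-only and 3 FISC-only peaks. The shared sites began at 8664296, 8916126, 8968663 and 9038398 in the QSC list. The QSC count exceeded 74% of 1 Mb windows and the FISC count 61%.

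The widest interval of the Hey1 range lay 35.4 kb before its centre, at chr3:8664296-8664973 in QSC. Its 678 bp exceeded 98.6% of the QSC list, and its FISC partner, chr3:8664497-8664905, measured 409 bp. At the shared site at 9038398 the FISC interval was the wider, 520 bp against 270 bp. Between the QSC-only peak chr3:8679756-8680037 and the next shared site lay the longest empty stretch, 236 kb. The widest QSC-only peak, chr3:8493017-8493348, measured 332 bp, and the widest FISC-only peak, chr3:9076701-9077086, 386 bp.

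The Heyl range, chr4:122400000-123400000, had the most shared sites, 10, more than in 94% of 1 Mb windows. Heyl also encodes a repressor of the Hey family, between Nt5c1a and Pabpc4 in RefSeq. The range held 14 QSC peaks, of which 71.4% (45.4 to 88.3) were shared, and 19 FISC peaks, of which 52.6% (31.7 to 72.7) were. QSC-only peaks were 4 and FISC-only peaks 9. The shared sites began at 122575603, 122587862, 122621648, 122877426, 122894054, 122931904, 122959756, 122983097, 123265640 and 123344772 in the QSC list, so 5 of them lay within 100 kb of the centre.

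The width of these central Heyl sites differed between the lists in both directions. The QSC peak chr4:122877426-122878232 had 807 bp, the widest of all 194, against 442 bp in FISC, a FISC to QSC ratio of 0.55. At chr4:122959526-122960224 the FISC interval had 699 bp against 268 bp in QSC, a ratio of 2.61. These were the lowest and the highest ratio among the 45 shared sites. The shared QSC peak nearest the centre, chr4:122894054-122894551 (498 bp), had a FISC-only peak 2.39 kb away, chr4:122896943-122897349 (407 bp).

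The outer Heyl range held the widest QSC-only peak of all ranges. It was chr4:122408495-122408981 (487 bp), and the nearest FISC peak, 76.4 kb away, was the widest FISC-only peak of the range, chr4:122485377-122485788 (412 bp). The smallest distance between a state-only peak and the other list was also here. A FISC-only peak starting at 123266181 lay 170 bp from the end of the shared QSC peak chr4:123265640-123266010. The longest empty stretch measured 120 kb from 123086902.

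The Calcr range, chr6:3200000-4200000, had the fewest peaks, 4 in QSC and 3 in FISC. Calcr lies between Vps50 and Tfpi2 in RefSeq. Its 4 QSC peaks exceeded 21.4% of 1 Mb windows and its 3 FISC peaks 36.4%. The 2 shared sites were chr6:3397322-3397624 and chr6:3446299-3446580 in QSC, with widths of 303 and 282 bp. Their FISC partners were wider, 595 and 386 bp. The FISC-only peak chr6:3570558-3571054 measured 497 bp, the widest FISC-only peak of the 8 ranges, and lay 124 kb from the nearest QSC peak. No peak of either list followed it for 449 kb, the longest empty stretch of the 8 ranges. That stretch ended at the QSC-only peak chr6:4020013-4020293 (281 bp), 343.9 kb from any FISC peak.

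The Spry1 range, chr3:37000000-38000000, had the fewest shared sites, 1. Spry1 lies between Spata5 and Ankrd50 in RefSeq once predicted genes are left out. It held 4 QSC and 10 FISC peaks, more than 21.4% and 73.8% of 1 Mb windows, and 3 of the former and 9 of the latter were state-only. The shared site was chr3:37102637-37103103 in QSC (467 bp) and chr3:37102857-37103203 in FISC (347 bp). The 9 FISC-only peaks exceeded the number in 87.4% of windows.

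Within the Spry1 range 4 FISC-only peaks and 1 QSC-only peak lay in 70.3 kb, from 37170125 to 37240394. The widest of each class were there, chr3:37201558-37201997 in FISC (440 bp) and chr3:37211381-37211702 in QSC (322 bp), 9.38 kb apart. The FISC-only peak nearest the centre, chr3:37539699-37540078 (380 bp), had no QSC peak within 223.5 kb. After it came an empty stretch of 312 kb. The QSC peak nearest the centre, chr3:37315900-37316199 (300 bp), lay 184 kb before the centre and 2.23 kb from a FISC-only peak.

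**Figure D3:**
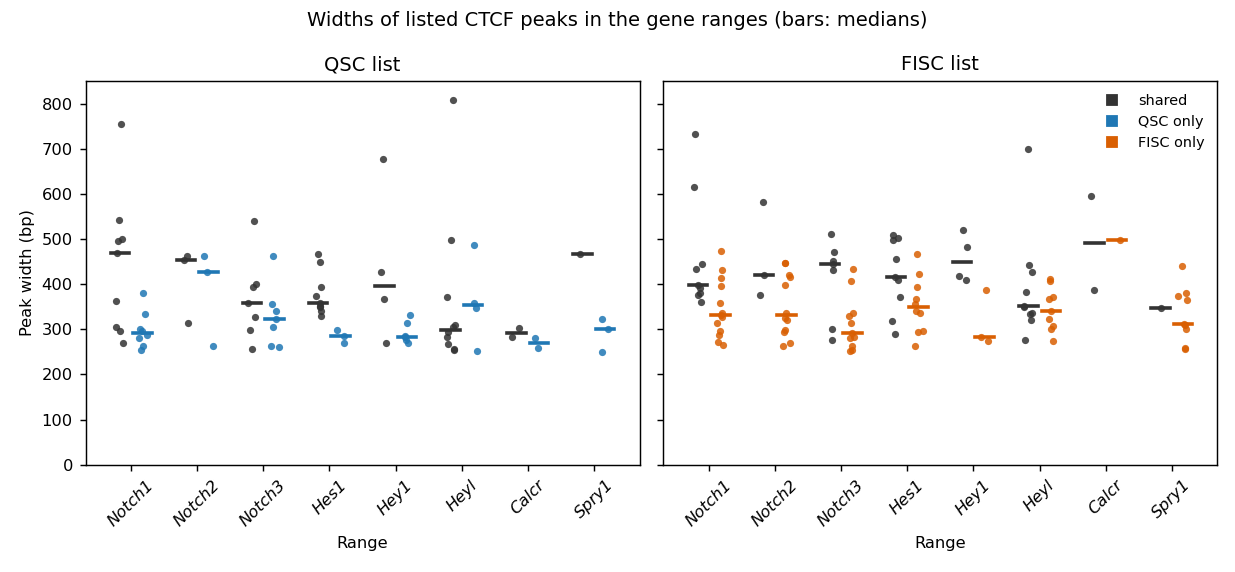
Width in bp of each listed CTCF peak by gene range, QSC list on the left and FISC list on the right, with shared peaks in black, state-only peaks in colour and a bar at each median. The 3 widest peaks of each list are all shared: 807, 755 and 678 bp in QSC, and 733, 699 and 615 bp in FISC.

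Over the 8 ranges together, shared peaks had a larger median width than state-only peaks in both lists. Width is the only value a listed peak carries, and what it reflects was not tested. In QSC the median was 358 bp for 45 shared peaks (95% order-statistic interval 314 to 401) and 298 bp for 36 QSC-only peaks (281 to 322). The whole QSC list had 359 and 291 bp. In FISC the median was 415 bp for 45 shared peaks (380 to 445) and 330.5 bp for 68 FISC-only peaks (310 to 358), beside 412 and 344 bp in the whole list. No state-only peak was wider than 487 bp in QSC or 497 bp in FISC, whereas shared peaks reached 807 and 733 bp. The order of the medians was the reverse in the Heyl range in QSC, with 299.5 bp for 10 shared and 353.5 bp for 4 QSC-only peaks. It was also the reverse in the Calcr range in FISC, with 490.5 bp for 2 shared peaks and 497 bp for the single FISC-only peak.

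**Figure D4:**
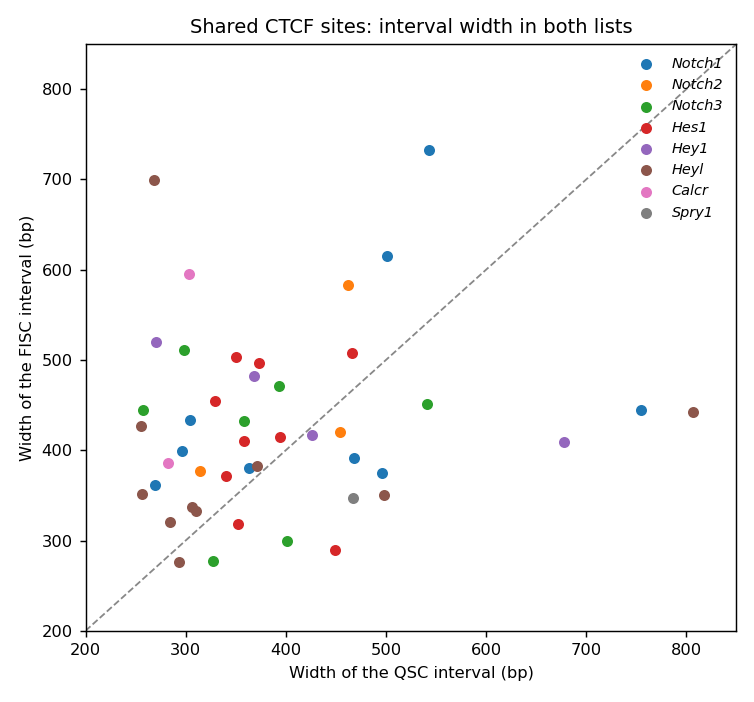
Width in bp of the FISC interval against that of the QSC interval at the 45 shared CTCF sites, coloured by gene range, with a dashed line where both are equal. Of the points, 30 lie above the line, and the 3 with the widest QSC interval (Notch1, Hey1 and Heyl ranges) lie below it.

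At the 45 shared sites the intervals of both lists overlapped by definition, which limits how far apart their midpoints can be. Their midpoints were a median of 42 bp apart, and within 100 bp at 38 sites (84.4%), beside 75.8% of 7280 such pairs in the whole lists. The largest shift, 278.5 bp, was at the Heyl site with the 807 bp QSC interval. The FISC interval was the wider at 30 sites (66.7%), beside 63.6% in the whole lists. It was the wider at 7 of 9 Hes1 sites, 7 of 10 Heyl sites and 6 of 9 Notch1 sites, and the narrower at the single Spry1 site.

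Most state-only peaks had no listed neighbour that a slightly looser overlap rule would have joined to them. Of the 36 QSC-only peaks, 1 lay within 1 kb of a FISC peak, beside 3.59% of all QSC-only peaks. Of the 68 FISC-only peaks, 3 lay within 1 kb of a QSC peak, beside 4.94% of all. The median distance to the other list was 29.7 kb (95% order-statistic interval 12.9 to 53.6) for QSC-only and 31 kb (21.1 to 50.3) for FISC-only peaks. The whole lists had medians of 60.6 and 27 kb. QSC-only peaks farther than 100 kb from any FISC peak were 4 of 36 (11.1%), beside 39.2% of the whole list. FISC-only peaks that far from any QSC peak were 4 of 68 (5.88%), beside 14.8% of the whole list. The ranges held 13.8 FISC and 9.88 QSC peaks per Mb, against 6.61 and 7.32 in the genome. The distances were not set beside those in windows of like density.

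**Figure D5:**
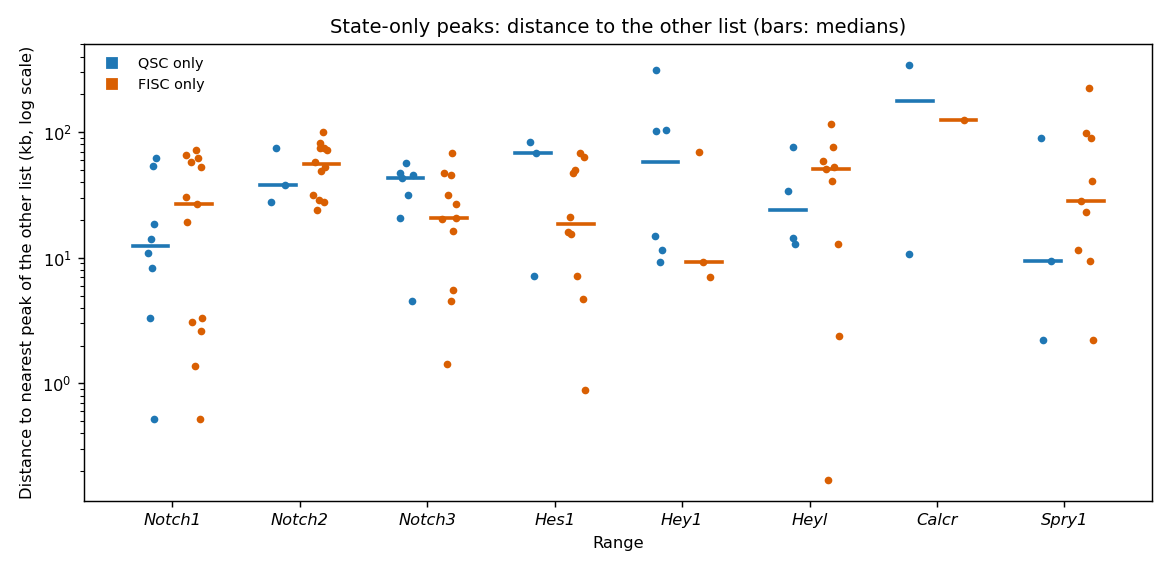
Distance in kb, on a log axis, from each state-only CTCF peak to the nearest peak of the other list, by gene range, with QSC-only peaks in blue, FISC-only peaks in orange and a bar at each median. The smallest distance is 170 bp in the Heyl range and the largest 343.9 kb in the Calcr range.

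The ranges differed widely in these distances. QSC-only peaks of the Notch1 range had a median distance of 12.5 kb to FISC (0.516 to 62.3 kb, 8 peaks), and those of the Hey1 range 58.1 kb (9.3 to 313 kb, 6 peaks). FISC-only peaks of the Notch2 range had a median of 55.6 kb to QSC (12 peaks), and those of the Hes1 range 18.6 kb (10 peaks). Among neighbouring merged sites of the 8 ranges, 34 of 141 gaps (24.1%) were under 10 kb, beside 19.9% of gaps in the genome. Of the 34, 10 lay in the Notch1 range. Gaps that cross the edge of a range are not among the 141, which favours short gaps, so the 24.1% and 19.9% are not strictly alike.

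Each range holds other genes besides the one it is named for, and the places of these genes on mm9 were not analysed here. A peak in a range is therefore not assigned to a gene. Other genes of the Notch pathway, such as its ligands, were not placed on the lists for the same reason.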

How the data were processed

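CTCF ChIP-seq was analysed as the authors deposited it, as 1 peak list per state, giving chromosome, start and end of each peak but no score. Per the submitters' processing notes, the build is mm9 and the tools are Bowtie2 2.2.3, Picard, MACS2 and HOMER. How peaks were thresholded, how the input served and how each pair of ChIP libraries became a single list is not given in the sources used here. Deeper libraries or a looser threshold give longer lists, so numbers of peaks are not a measure of total binding.

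Members, lists and ranges were chosen with earlier results of these data known. All 8 ranges are described. Within each, the rule names every shared site where there are 10 or fewer and the widest peak of each class. It also names the peak of each list nearest the centre and the longest empty stretch. Such a stretch was measured between neighbouring sites of a range, not up to its edges. Runs of sites, the densest 100 kb, the flanks, the split by number of shared peaks and single peaks outside the rule were chosen after their values were seen. Genome windows of 1 Mb, or 1.1 Mb for Notch2 and Notch3, were counted from the chromosome start and include windows with no peak. Overlaps, counts and intervals come from Python 3.11.15 with scipy 1.17.1 and numpy 2.4.6, and the numbers of shared peaks in the whole lists were checked with bedtools 2.31.1. The overlap and distance functions were tested on simulated data. Gene neighbours come from RefSeq (GRCm38.p6), by name only, with predicted genes left out, and all 8 genes were on the chromosome of their range. Coordinates count from 1.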

Additional observations from a re-analysis of the deposited data

How the results depend on the processing

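Of 63 alternative values for the 8 ranges together, 61 stayed within the 95% interval of the reported value, or within 1.5 times it for counts. The other 2 were the numbers of peaks in the central 500 kb of each range, 36 QSC and 55 FISC peaks, which follow from the shorter ranges. For single ranges, 34 of 48 counts stayed within 1.5 times, and the 14 others were all from the central 500 kb. The shared share of QSC peaks was lowest at 45.6% with ranges widened by 500 kb and highest at 61.1% in the central 500 kb. The FISC-only share of state-only peaks was lowest at 57% with widened ranges and 59.6% in the wider 50% of each list, and highest at 70.2% in the central 500 kb. Leaving out each range in turn gave 52.2% to 57.7% for the first share and 62.9% to 68.4% for the second. The alternatives drew on largely the same peaks, so values close to the reported ones were likely. Shares of the whole lists were not recalculated under any alternative, so the contrasts with the whole lists were not checked in this way. Without scores, a stricter calling threshold could not be tried. No paired analysis was possible because the 2 libraries of a state have no separate peak lists, so leaving out a replicate was not possible either.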
